A study of Mus musculus with 12 samples.

Results

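The response of HDAC4/5 double-knockout (DKO) Ocy454 cells to fluid flow shear stress (FFSS) was described from 6 of the 12 libraries of the series, chosen by label: 3 libraries of DKO cells after FFSS and 3 of DKO cells kept static. Ocy454 is a mouse osteocyte line from long bone that carries a temperature-sensitive T antigen. Cells were differentiated at 37 °C for 14 days, and FFSS was produced for 3 h by rotating the culture dishes on a mixing platform. Both groups carried the same genotype, a CRISPR/Cas9 deletion of HDAC4 and HDAC5. The remaining 6 libraries, original (control) cells with and without FFSS, were used only beside it. The line is 1 cell type in a dish with a mixed flow pattern, and whether the DKO cells were 1 clone or a pool is not given in the sources used here. The labels number 3 replicates per group without saying that they were separate cultures, so p-values measure the spread between these libraries.

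Osteocytes sit in lacunae inside mineralised bone, and the flow of fluid along their dendrites is thought to be how they read load. HDAC4 and HDAC5 belong to the class IIa deacetylases, which shuttle between cytoplasm and nucleus and repress MEF2 transcription factors when nuclear. Several routes are known to carry shear signals to the nucleus, among them integrins and focal adhesion kinase, ERK, prostaglandin and purine release, YAP and SRF. Separately, oxygen controls the hypoxia-inducible factors (HIF), since prolyl hydroxylases (the Egln genes) use oxygen to mark HIF for destruction by VHL, and less oxygen means more HIF and more transcription of its targets.

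Each DKO static library held between 19.08 and 19.17 M reads assigned to genes and each DKO FFSS library between 17.59 and 18.96 M, so that a gene with 3 reads in a library had 0.157 to 0.171 CPM (counts scaled to library size, per 1e+06 assigned reads). The share of reads outside annotated genes was 7.12%, 7.07% and 7.14% in the static and 7.93%, 8.09% and 8.56% in the FFSS libraries, without overlap, so that share and the treatment cannot be told apart in these 6 libraries. The first principal component (28.1% of the variance) separated static from FFSS. The 6 osteocyte markers sat at a summed 3420 to 3510 CPM in static and 3470 to 3840 CPM in FFSS libraries. Among them Fgf23 had no read in the static libraries and at most 1 read in an FFSS library. Markers of other cells stayed low: 7 endothelial genes summed to at most 5.06 CPM, 8 macrophage and osteoclast genes to at most 3.47 CPM, 7 muscle genes to at most 2.67 CPM and 8 adipocyte genes to at most 23.3 CPM, and 0 of the 10 members that were tested passed edgeR or DESeq2 (0 at an unadjusted p under 0.05). The 6 chondrocyte markers were not low, at a summed 2260 to 2800 CPM in static and 1930 to 2380 CPM in FFSS libraries. The targeted genes were still counted. Hdac5 was at 78.5, 76.4 and 86.2 CPM in static and 89.1, 88.2 and 88.6 CPM in FFSS libraries, against a mean of 133 CPM in control static cells. Hdac4 carries 2 gene IDs in this annotation, at a mean of 13.8 and 16.8 CPM in static DKO cells against 26.15 and 23.1 CPM in static control cells. Gene counts do not show whether the transcripts that remain encode protein.

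FFSS for 3 h moved many genes in DKO cells by small amounts. Of 15924 genes tested, 882 (5.54%) rose and 905 (5.68%) fell at a Benjamini-Hochberg adjusted p under 0.05 in edgeR's quasi-likelihood test of 3 against 3 libraries. The median absolute change of these 1787 genes was 0.25 on the log2 scale. 1653 of them changed by no more than 1.5-fold and 88 by 1.5 to 2-fold. More than a 2-fold change, the threshold for a call here, was reached by 21 genes that rose (0.132% of those tested) and 25 that fell (0.157%). All libraries of one group lay above all of the other for 1752 of the 1787 genes, against 4662 of all genes tested (29.3%). Replicates were close: the biological coefficient of variation was 0.041 in DKO cells and 0.132 in the control comparison. When the spread was estimated over all 12 libraries, 130 genes passed and 13 were called. With the share of reads outside genes as a covariate, a fit added after seeing the data, 6 passed and 3 were called. Without FFSS replicate 1 the counts were 1103 and 27.

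Many called genes were expressed at a low level. Of the 25 genes called lower, 13 had an average log2 CPM above 1 and were coding genes with static means between 5.96 and 175 CPM, and 12 stood at or below that level, with static means between 0.262 and 2.75 CPM and log2 fold changes between -2.30 and -1.06. Of the 21 called higher, 17 stood at or below it, with FFSS means between 0.363 and 1.45 CPM, and 10 of these 17 were coding genes. Myocd, a coactivator of SRF, was one of them, chosen after its values were seen, with 3, 2 and 1 reads in static and 8, 4 and 11 in FFSS libraries (log2 fold change 1.92, adjusted p = 0.0306). Its significance (an adjusted p under 0.05) was lost in 4 of 6 single-library omissions. Calls at this level rest on few reads.

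**Figure D1:**
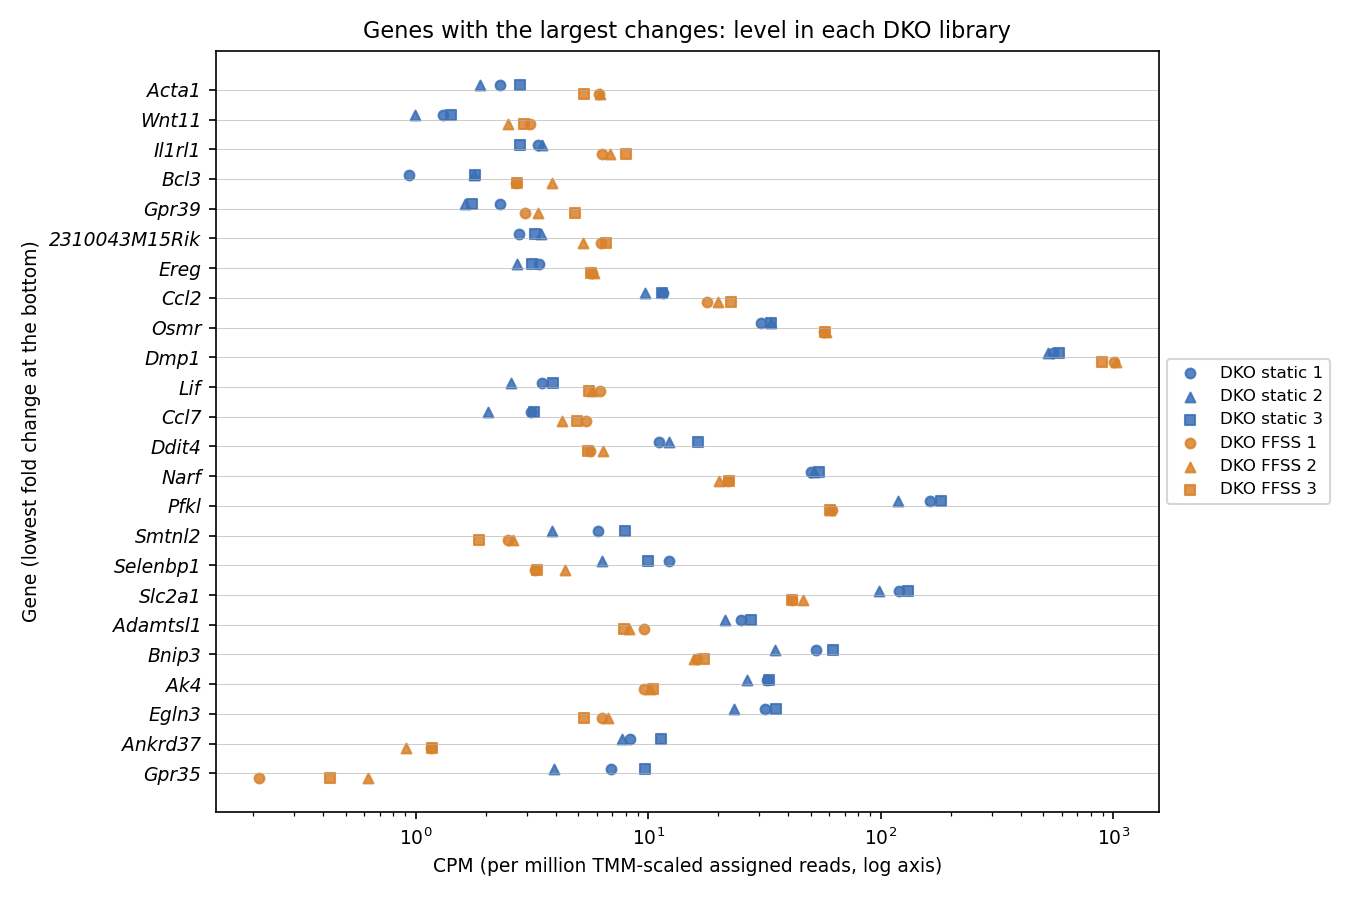
Each DKO library is a point on a log axis of CPM, for the 12 genes above 1 log2 CPM that rose furthest and the 12 that fell furthest, with blue for static, orange for FFSS and a marker shape per replicate number. The genes were chosen for groups that do not overlap, and static replicate 2 (blue triangle) is the lowest static point for 10 of the 12 genes that fell.

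Of the 28 HIF targets outside glycolysis that were tested, 4 were called lower: Ankrd37, Egln3, Bnip3 and Ddit4. Egln3 (ENSMUSG00000035105, mm9 chr12:55279968-55304847, minus strand) encodes prolyl hydroxylase 3, itself a HIF target that feeds back on HIF. It stood at 31.9, 23.4 and 35.4 CPM in static and at 6.33, 6.71 and 5.28 CPM in FFSS libraries, so that every FFSS library lay far below every static one. The log2 fold change was -2.31 ± 0.18 (SE, adjusted p = 8.37e-05). Ankrd37 (ENSMUSG00000050914, mm9 chr8:47082256-47085221, minus strand), an ankyrin repeat gene widely used as a hypoxia marker, went from 8.35, 7.69 and 11.3 CPM to 1.16, 0.909 and 1.17 CPM. Its log2 fold change was -3.06 ± 0.19 (adjusted p = 8.86e-11), the second lowest among genes above 1 log2 CPM. It overlaps Ufsp2, whose counts were 1100% of its own, and reads in the shared stretch were not counted. Bnip3 (ENSMUSG00000078566, mm9 chr7:146082519-146101202, minus strand) encodes a mitochondrial protein of mitophagy. Its level was 52.6, 34.9 and 62.2 CPM in static and 16.1, 15.7 and 17.3 CPM in FFSS libraries. The static libraries differed from each other more than the FFSS libraries did, and the log2 fold change of -1.603 (adjusted p = 0.0320) lost significance in 4 of 6 single-library omissions, with an adjusted p of at most 0.136.

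Gpr35 (ENSMUSG00000026271, mm9 chr1:94869696-94882968, plus strand), a G protein-coupled receptor, had the lowest log2 fold change of all called genes, -4.02 ± 0.58 (adjusted p = 0.0101). It had 133, 75 and 184 reads in static libraries and 4, 11 and 8 in FFSS libraries. The groups lay far apart, the static counts were spread widely, and significance was lost in 3 of 6 omissions (adjusted p of at most 0.0781). Selenbp1, which encodes a methanethiol oxidase, had 12.3, 6.33 and 10.02 CPM in static and 3.27, 4.38 and 3.31 CPM in FFSS libraries (-1.39, adjusted p = 0.0115), and this too was lost in 3 omissions. Smtnl2, a smoothelin-like protein, went from 6.11, 3.87 and 7.91 CPM to 2.48, 2.61 and 1.87 CPM (-1.36, adjusted p = 0.00294). The replicates of both genes spread widely in static cells, with no overlap with the FFSS libraries. Ak4 (ENSMUSG00000028527, mm9 chr4:101091882-101140376, plus strand) encodes a mitochondrial adenylate kinase. It went from 32.3, 26.7 and 32.97 CPM to 9.55, 10.2 and 10.5 CPM, a change of -1.604 ± 0.09 (adjusted p = 1.41e-12). Narf (ENSMUSG00000000056, mm9 chr11:121098567-121117170, plus strand), a prelamin A binding protein, went from 50.1, 51.4 and 54.3 CPM to 21.96, 20.2 and 22.4 CPM, -1.27 ± 0.06 (adjusted p = 2.49e-13). Both groups were tight and far apart. Ak4 and Narf were the only 2 of the 150 named genes past the threshold that passed in every alternative run, although Narf overlaps Foxk2, whose counts were 418% of its own.

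Of the 28 HIF targets outside glycolysis 15 fell, 0 rose and 13 did not pass, with a median log2 fold change of -0.31 against -0.0026 over all genes tested, of which 5.54% rose and 5.68% fell. This and the other lists were chosen with earlier results of these data known, so their counts and medians are descriptions and not tests. Mxi1, a MYC antagonist, fell from a mean of 67.4 ± 5.41 to 39.4 ± 2.25 CPM (SD, n = 3 each), and Pnrc1, a nuclear receptor coregulator, from 118 to 88.8 CPM. Ddit4, an inhibitor of mTORC1, went from 11.1, 12.3 and 16.4 CPM to 5.59, 6.42 and 5.50 CPM, a fall of 1.19 on the log2 scale (adjusted p = 5e-06). Named after their values were seen, Vegfa, the angiogenic ligand, went from 487 to 397 CPM (-0.29, adjusted p = 0.000188), Gys1, the glycogen synthase of most tissues, from 49.4 to 29.97 CPM (-0.72, adjusted p = 3.74e-05) and Adm, the vasodilator peptide adrenomedullin, from 17.4 to 11.4 CPM (-0.61, adjusted p = 0.0150). Gys1 overlaps Ruvbl2, whose counts were 138% of its own. Apln, which encodes the peptide apelin and was likewise chosen after the fact, stood at 179, 148 and 199 CPM in static and 85.5, 81.8 and 68.4 CPM in FFSS libraries, a fall of 1.16 (adjusted p = 0.0116). The significance of Adm and of Apln was lost in 2 of 6 omissions. Across the 6 omissions 12 to 24 members fell. In the fit with all 12 libraries 6 of the 28 fell, and 0 did with the covariate.

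In the list of 8 oxygen-sensing genes tested, 3 fell and 1 rose (median -0.12). Egln1, the main HIF prolyl hydroxylase and also a HIF target, went from 182, 141 and 194 CPM to 114, 109 and 113 CPM (-0.62, adjusted p = 0.0315), a significance that was lost in 4 of 6 omissions. Hif1a, the alpha subunit of HIF-1, fell from 378 to 327 CPM (-0.21, adjusted p = 0.00079). Epas1, the alpha subunit of HIF-2, rose from 148 to 176 CPM (0.25, adjusted p = 0.000513). Egln1 and Egln3 count both here and among the targets.

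Of 23 genes of glucose uptake and glycolysis tested, 7 fell, 2 rose (Eno2 and Slc16a1) and the median was -0.24. In the fit with all 12 libraries 4 of the 23 fell and 0 rose, and 0 passed with the covariate. Slc2a1 (ENSMUSG00000028645, mm9 chr4:118781316-118809935, plus strand), the glucose transporter GLUT1, stood at 120, 98.1 and 131 CPM in static and 41.7, 46.5 and 41.7 CPM in FFSS libraries, -1.43 ± 0.11 (adjusted p = 9.78e-05). Pfkl, the liver-type phosphofructokinase, went from 162, 119 and 181 CPM to 61.6, 60.7 and 60.7 CPM, -1.34 ± 0.18 (adjusted p = 0.0174). The FFSS libraries were nearly equal and all below the static ones, yet significance for Pfkl was lost in 4 of 6 omissions. Pfkm, the muscle phosphofructokinase, fell by 0.42, Pgam1, phosphoglycerate mutase, by 0.63 and Hk2, an inducible hexokinase, by 0.42 on the log2 scale. Pdk1, which keeps pyruvate out of the citric acid cycle, was chosen after the fact. It went from 76.5, 58.8 and 84.9 CPM to 42.5, 41.7 and 44.1 CPM (-0.78, adjusted p = 0.0200), which was lost in 4 of 6 omissions. Tpi1, triosephosphate isomerase, also chosen after the fact, had 890, 648 and 900 CPM in static and 601, 602 and 600 CPM in FFSS libraries (adjusted p = 0.169), the low static value being replicate 2. It did not pass in the fit described, and passed without static replicate 2 (-0.57, adjusted p = 2.13e-21), with DESeq2 (0.0301) and without robust estimation (0.00103). The 37 nuclear genes of the respiratory chain, which use oxygen downstream, had 0 members past the threshold in either direction by edgeR or DESeq2 (3 at an unadjusted p under 0.05) and a median of -0.0088. Their changes ran from the -0.10 of Sdha to the 0.11 of Atp5d.

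One static library lay between the groups for these genes. DKO static replicate 2 was the lowest of the static libraries for 21 of the 28 HIF targets (75.0%) and 19 of the 23 glycolysis genes (82.6%), against 36.3% of all genes tested. Relative to the static mean, the median HIF target stood at 0.03, -0.23 and 0.15 (log2) in static replicates 1, 2 and 3, and at -0.26, -0.34 and -0.33 in the FFSS libraries. For the glycolysis list the medians were 0.05, -0.22 and 0.11 in static and -0.23, -0.13 and -0.28 in FFSS libraries, so that static replicate 2 lay within the FFSS range. Without it, 24 of 28 HIF targets and 15 of 23 glycolysis genes fell. Without it 1979 genes passed and 62 were called in all. What set this library apart was not tested. By contrast, the medians of osteocyte markers, osteoclast regulators, cytokines and cholesterol genes in each FFSS library were above those in each static library.

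**Figure D2:**
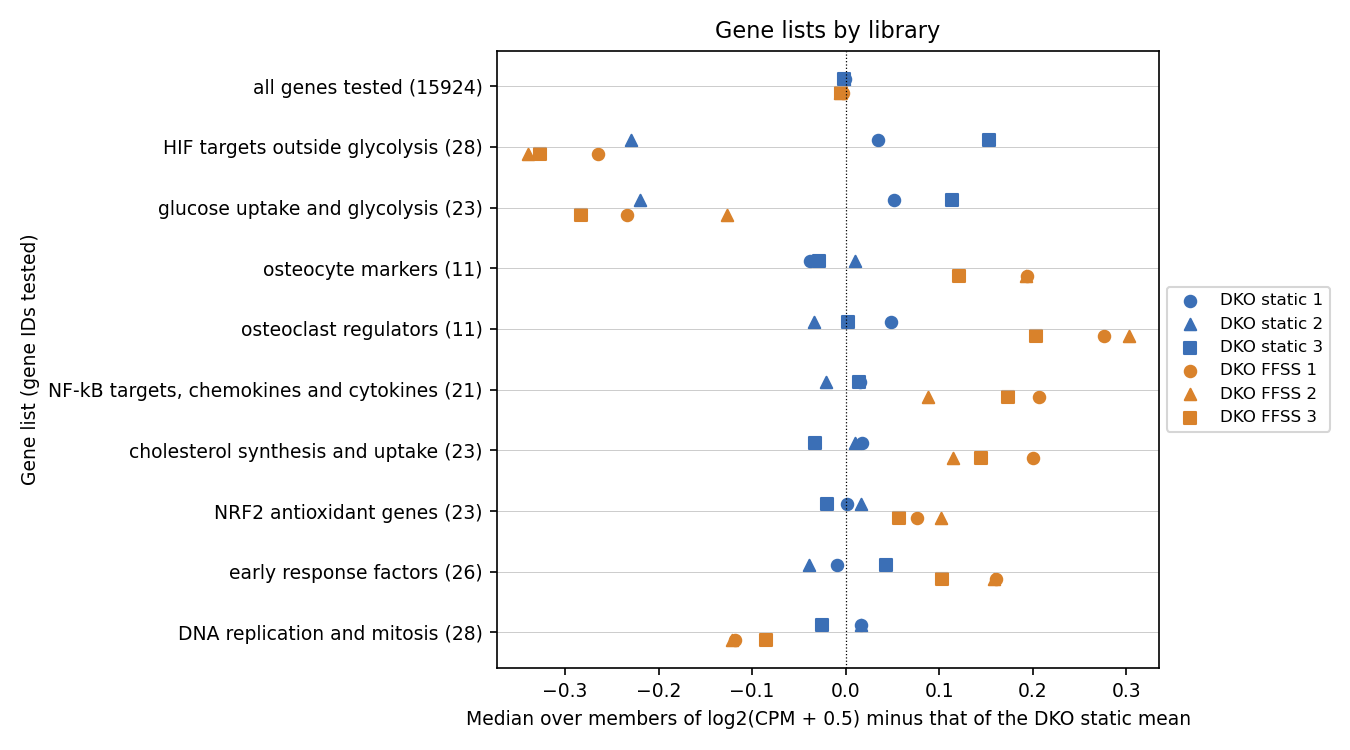
Median over the members of each list of log2(CPM + 0.5) in 1 library minus the log2(CPM + 0.5) of the DKO static mean, blue for static and orange for FFSS, with a marker shape per replicate number and the number of gene IDs in brackets. Static replicate 2 lies at -0.23 for HIF targets, just above the FFSS libraries, and at -0.22 for glycolysis genes, within their range, the only list shown in which static and FFSS libraries overlap.

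HIF binds a short core, ACGTG or GCGTG, within hypoxia response elements, and SRF binds the CArG box. Promoter windows (250 bases before to 50 after a start site) were taken from RefSeq on GRCm38.p6, a build other than the mm9 of the counts. Matching by symbol found 19 of the 25 genes called lower, of which 12 (63.2%) held a core on either strand in a window, against 66.1% of the 10035 tested genes that matched and 46.7% of all 27025 genes with a window. Of matched genes past the adjusted p threshold, 68.9% of those that fell and 74.2% of those that rose held a core. Of the 20 HIF targets matched 17 (85%) held a core, and of the 21 glycolysis genes 18 (85.7%). These lists were assembled as known HIF targets, so a high share is no independent result. The window of Acta1, described further on, is printed because it holds a CArG box. Windows of 4 genes that fell, all holding cores, are printed to show how the core is arranged in genes with large changes. Each is written 5′ to 3′ on the gene's strand, and capitals mark a core on either strand (overlapping matches run together) or a CArG box. A match is a description of letters and not a bound site.
Ankrd37, chr8:45999801-46000100, minus strand: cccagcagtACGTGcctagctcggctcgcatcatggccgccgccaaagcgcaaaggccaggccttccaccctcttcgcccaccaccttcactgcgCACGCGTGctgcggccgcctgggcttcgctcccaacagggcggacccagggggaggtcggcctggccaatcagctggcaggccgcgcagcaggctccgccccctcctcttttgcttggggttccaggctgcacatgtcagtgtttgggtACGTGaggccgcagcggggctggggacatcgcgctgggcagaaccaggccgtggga
Slc2a1, chr4:119108495-119108794, plus strand: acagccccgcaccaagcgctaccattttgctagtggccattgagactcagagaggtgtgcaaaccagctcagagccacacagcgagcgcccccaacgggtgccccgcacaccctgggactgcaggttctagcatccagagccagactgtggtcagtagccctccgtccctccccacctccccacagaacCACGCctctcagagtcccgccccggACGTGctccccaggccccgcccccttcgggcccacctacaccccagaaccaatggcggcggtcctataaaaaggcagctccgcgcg
Bnip3, chr7:138909457-138909756, minus strand: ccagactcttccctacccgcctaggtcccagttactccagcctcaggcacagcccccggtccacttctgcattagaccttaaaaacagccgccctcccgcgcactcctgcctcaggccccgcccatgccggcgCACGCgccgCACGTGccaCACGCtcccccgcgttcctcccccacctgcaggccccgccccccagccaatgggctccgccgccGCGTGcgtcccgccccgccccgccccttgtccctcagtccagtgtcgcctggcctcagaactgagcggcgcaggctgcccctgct
Ak4, chr4:101419039-101419338, plus strand: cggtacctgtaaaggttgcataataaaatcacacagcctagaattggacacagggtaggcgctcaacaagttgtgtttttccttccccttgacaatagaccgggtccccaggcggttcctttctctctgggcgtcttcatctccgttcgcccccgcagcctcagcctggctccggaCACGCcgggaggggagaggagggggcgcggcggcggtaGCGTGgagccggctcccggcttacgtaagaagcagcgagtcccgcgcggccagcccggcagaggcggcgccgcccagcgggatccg
Acta1, chr8:123894726-123895025, minus strand: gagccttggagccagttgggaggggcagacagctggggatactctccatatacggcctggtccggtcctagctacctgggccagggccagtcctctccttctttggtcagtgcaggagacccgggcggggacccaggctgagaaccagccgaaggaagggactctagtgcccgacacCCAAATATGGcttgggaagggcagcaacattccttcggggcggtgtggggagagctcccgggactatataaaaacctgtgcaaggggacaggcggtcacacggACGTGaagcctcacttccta
Ankrd37 held 4 matches, Bnip3 5, Slc2a1 2 and this window of Ak4 2. Not all genes with large falls held a core: the window of Smtnl2 held 0, and those of Gpr35 held 0 and 1. The window of Acta1, which rose, held 1 core besides its CArG box. In the SRF list 7 of 17 matched genes (41.2%) held a CArG box, against 1.81% of all genes, and since that list was assembled as known SRF targets this too is no independent result.

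Of 11 osteocyte markers tested 6 rose and 0 fell (median 0.16), and 0 rose in the fit with all 12 libraries. Dmp1 (ENSMUSG00000029307, mm9 chr5:104631632-104643121, plus strand), an acidic phosphoprotein of the osteocyte matrix needed for mineralisation and phosphate balance, stood at 553, 527 and 581.7 CPM in static and 1012, 1026 and 892 CPM in FFSS libraries. The groups were far apart, with a log2 fold change of 0.82 ± 0.05 (adjusted p = 3.36e-10), and the gain of 423 CPM was the second largest among genes past the threshold. The largest was that of Spp1, osteopontin, which went from 3840, 4009 and 3615 CPM to 5040, 5023 and 4323 CPM (0.33, adjusted p = 0.000795). Fam20c, the kinase that phosphorylates both of these proteins, rose from 629 to 808 CPM (0.36, adjusted p = 5.57e-06). Ank, a pyrophosphate transporter, rose from 340 to 400.0 CPM, and Pdpn, podoplanin, an early marker of dendrite formation, from 4.86 to 6.84 CPM (0.50, adjusted p = 0.00844), which was lost without FFSS replicate 1 (adjusted p = 0.0705). Without that library 3 of the 11 markers passed. Sost, which encodes sclerostin, the secreted inhibitor of WNT signalling, stood at 1991, 1953 and 1939 CPM in static and 1893, 1850 and 1660 CPM in FFSS libraries. The groups did not overlap, and the difference of -0.12 ± 0.04 did not pass (adjusted p = 0.0608). It passed without static replicate 2 (adjusted p = 0.0385), with no filter on low counts (0.0185) and with limma-voom (0.0429), and in the other 14 settings adjusted p was 0.0522 to 0.969, among them the covariate fit, where the sign turned (0.21, adjusted p = 0.946).

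The osteoblast list was divided, with 5 of 19 higher, 2 lower (1 without static replicate 3 or FFSS replicate 1, 3 without static replicate 2 or FFSS replicate 2) and a median of 0.0015. In the fit with all 12 libraries 0 of the 19 passed. Dlx3, a homeobox factor of osteoblasts, rose from 130 to 157 CPM and Bglap, osteocalcin, from 171 to 209 CPM (0.29, adjusted p = 0.000136). Ogn, the proteoglycan osteoglycin, fell from 23.0 to 17.9 CPM. Msx2, a homeobox factor chosen after its values were seen, had 6, 4 and 6 reads in static and 14, 8 and 17 in FFSS libraries (1.31, adjusted p = 0.0369), significance lost in 5 of 6 omissions. Gdf5, a BMP-family ligand of joints chosen in the same way, had 17, 9 and 17 reads against 7, 5 and 5 (-1.27, adjusted p = 0.0378), also lost in 5 of 6. Tmem119, a membrane protein of osteoblasts, had the third largest loss in CPM among genes past the threshold. It went from 363, 314 and 406 to 224, 225 and 226 CPM (-0.68, adjusted p = 0.000516).

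Among 11 genes that osteocytes use to act on osteoclasts, 5 rose and 0 fell (median 0.24). That count stayed at 5 in each of the 6 omissions and was 0 in the fit with all 12 libraries. Csf1, Lif, Ccl2 and Ccl7, which rose, also belong to the list of NF-kB targets, chemokines and cytokines, so the counts overlap. Ccl2, a monocyte chemokine, stood at 11.6, 9.68 and 11.4 CPM in static and 17.9, 20.0 and 22.7 CPM in FFSS libraries (0.89, adjusted p = 6.26e-07), and its neighbour Ccl7 at a mean of 2.80 and 4.87 CPM (0.80, adjusted p = 0.00188). Csf1, the growth factor of osteoclast precursors, rose from 862 ± 25.5 to 1020.0 ± 23.5 CPM (SD, n = 3 each). Tnfrsf11b, which encodes the decoy receptor osteoprotegerin, rose from 61.3 to 74.5 CPM (0.28, adjusted p = 0.000843). Tnfsf11, which encodes its ligand RANKL, had 13.3, 12.7 and 12.5 CPM in static and 13.4, 15.9 and 10.7 CPM in FFSS libraries. The libraries of the groups overlapped (0.05 ± 0.11, adjusted p = 0.819).

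Of 21 NF-kB targets, chemokines and cytokines 7 rose, 0 fell and 14 did not pass (median 0.17), and 0 rose in the fit with all 12 libraries. Among those that rose, Csf1, Lif, Ccl2 and Ccl7 were already counted as osteoclast regulators. Il1rl1 (ENSMUSG00000026069, mm9 chr1:40486415-40522260, plus strand), the receptor of interleukin 33, had 3.34, 3.50 and 2.80 CPM in static and 6.33, 6.88 and 8.06 CPM in FFSS libraries, 1.14 ± 0.14 (adjusted p = 4.57e-06). Osmr, the receptor subunit of oncostatin M, went from 30.4, 33.6 and 33.6 CPM to 57.0, 58.4 and 57.5 CPM (0.82, adjusted p = 2.03e-10), and Lif, a ligand of the same family, from 3.32 to 5.84 CPM (0.81, adjusted p = 0.000522). Bcl3, an atypical IκB protein, had 0.940, 1.78 and 1.79 CPM in static and 2.69, 3.86 and 2.72 CPM in FFSS libraries (1.03, adjusted p = 0.00290). Osmr and Bcl3 are outside this list, as are Gpr39, Ereg and Tnfrsf12a. Gpr39, a zinc-sensing receptor outside this list, rose from 1.89 to 3.72 CPM (0.98, adjusted p = 0.00200), and its sign turned with the covariate. Ereg, an EGF-family ligand, rose by 0.89 from a mean of 3.09 CPM, and Tnfrsf12a, the receptor of TWEAK, by 0.62 from 208 CPM. Tnfrsf12a overlaps Hcfc1r1, whose counts were 49% of its own. Not a single gene of 26 in the interferon and antigen presentation list passed by edgeR (0 of 26, 4 at an unadjusted p under 0.05, 0 by DESeq2, median -0.10). Without static replicate 2, the lowest static library for 18 of these 26 genes (69.2%), 3 of them fell. Without static replicate 1 or FFSS replicate 2, 1 of them rose.

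Immediate signalling read-outs were modest after 3 h. Of 26 early response factors 8 rose and 2 fell (median 0.14), with 1 lower without any 1 of the FFSS libraries and 3 lower without static replicate 1 or 3. Junb went from 146, 121 and 147 CPM to 208, 211 and 189 CPM (0.55, adjusted p = 0.000118), Ier2 from 37.3 to 51.7 CPM, Myc from 110 to 141 CPM, and Klf4 fell from 321 to 266 CPM. Fos and Egr1, textbook load-responsive genes named after their values were seen, rose by 0.36 and 0.47, and significance for Egr1 was lost in 4 of 6 omissions. In the ERK feedback list, genes that ERK induces and that restrain it, 6 of 19 rose and 0 fell (median 0.09), and 0 rose in the fit with all 12 libraries. The phosphatases Dusp5 and Dusp6 led it, with 11.4, 10.4 and 9.34 CPM against 16.5, 19.1 and 17.2 CPM for Dusp5 (0.76, adjusted p = 2.94e-06) and a mean of 20.0 against 31.0 CPM for Dusp6 (0.63, adjusted p = 2.26e-06). Etv4, an ETS factor, and Spry4, a Sprouty inhibitor, rose by 0.41 and 0.46.

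Cytoskeletal genes rose in part. Of 24 SRF targets 5 rose and 0 fell (median 0.07), and 1 rose in the fit with all 12 libraries. Acta1 (ENSMUSG00000031972, mm9 chr8:126415669-126418651, minus strand), skeletal alpha-actin, stood at 2.30, 1.88 and 2.80 CPM in static and 6.12, 6.19 and 5.28 CPM in FFSS libraries, 1.33 ± 0.16 (adjusted p = 2.36e-06), the highest log2 fold change among genes above 1 log2 CPM. It was not accompanied by muscle markers, whose sum stayed at or under 2.67 CPM. Tagln, transgelin, rose from 51.7 to 73.0 CPM (0.50), Zyx, the focal adhesion protein zyxin, by 0.31 and Tpm1, tropomyosin, by 0.19. Tagln overlaps Pcsk7, whose counts were 100% of its own, and significance for Tpm1 was lost in 1 omission (adjusted p = 0.051). Among 19 YAP and TAZ factors and targets 3 rose and 2 fell (median 0.0099), and 0 or 1 fell in each of the 6 omissions. Ctgf, a matricellular target of YAP, went from 151, 155 and 148 CPM to 217, 222 and 199 CPM (0.49, adjusted p = 3.50e-08). The related Cyr61 went from 309 to 349 CPM (0.17, adjusted p = 0.0332). Its significance was lost in 4 of 6 omissions, and its sign turned with the covariate. Of 29 integrin and focal adhesion genes 3 rose (10.3%) and 4 fell (13.8%), against 5.54% and 5.68% of all genes tested. Itga5, the fibronectin receptor subunit, rose by 0.23, while Tln2, a talin, fell by 0.34 and Itga3, a laminin receptor subunit, by 0.25, the last lost in 2 omissions. Without static replicate 1 or FFSS replicate 1, 1 of the 29 fell. In the fit with all 12 libraries 0 members of the YAP and integrin lists passed.

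Few genes of release and reception of paracrine load signals passed. Of 18 channels and purine genes 2 rose (11.1%, against 5.54% of all genes tested) and 0 fell. Those that rose were Panx1, the ATP-releasing pannexin, from 6.52 to 8.71 CPM (0.42, adjusted p = 0.0115) and P2rx7, an ATP-gated channel, from 33.9 to 39.2 CPM (0.21, adjusted p = 0.0201). In the prostaglandin list of 10, Ptges2 rose by 0.23 and Abcc4, an exporter, fell by 0.21, and Ptgs2, the inducible cyclooxygenase, was at 58.5 and 64.5 CPM (adjusted p = 0.0828). In the PTH and cAMP list 2 of 23 IDs rose (8.7%) and 1 fell (4.3%), near the 5.54% and 5.68% of all genes tested, the fall being that of the salt-inducible kinase Sik1 with -0.39 (adjusted p = 0.0472). The significance of P2rx7, Ptges2, Abcc4 and Sik1 was lost in 3 to 5 omissions each, and that of Panx1 without static replicate 3 (adjusted p = 0.0600). In the fit with all 12 libraries 0 members of the channel, prostaglandin and PTH lists passed.

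WNT ligands changed in both directions. Of 10 tested 3 rose and 2 fell. Wnt11 (ENSMUSG00000015957, mm9 chr7:105983622-106003705, plus strand), a ligand linked mostly to non-canonical signalling, had 1.31, 0.994 and 1.42 CPM in static and 3.11, 2.50 and 2.94 CPM in FFSS libraries, 1.199 ± 0.21 (adjusted p = 0.000286). Wnt1, the bone-forming ligand mutated in brittle bone disease, had 3.76, 3.56 and 4.27 CPM in static and 6.76, 4.43 and 6.14 CPM in FFSS libraries (0.59, adjusted p = 0.0111), and Wnt10b rose by 0.20 and Wnt6 fell by 0.36. Significance of these last 3 genes was lost in 2 or 3 omissions. Of 8 secreted antagonists Frzb fell by 0.37 and Sfrp2 by 0.16, the latter lost in 3 omissions, and 0 rose. Of 14 canonical targets 1 rose (7.1%, near the 5.54% of all genes tested), Lef1, a WNT transcription factor, from 35.4 to 47.3 CPM (0.42, adjusted p = 2.49e-05), and Axin2, the standard read-out, did not (-0.46, adjusted p = 0.0552), passing only without FFSS replicate 2 among the omissions (adjusted p = 0.0392). With all 12 libraries in the fit 1 WNT ligand rose and 0 fell, and 0 antagonists and canonical targets passed.

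**Figure D3:**
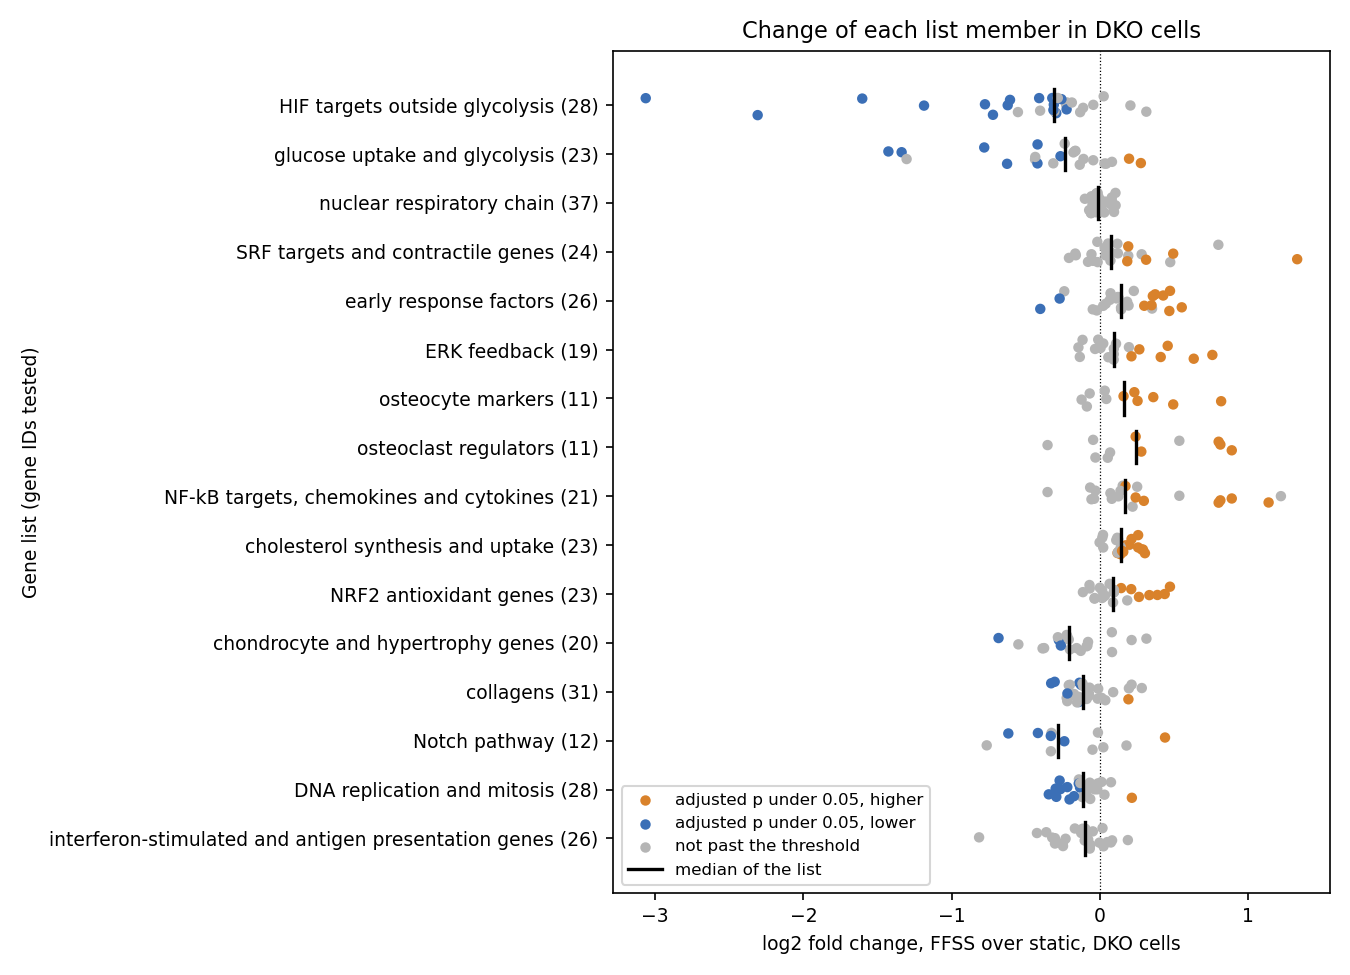
Log2 fold change (FFSS over static, DKO cells) of each tested member of 16 gene lists, orange and blue for members higher and lower at an adjusted p under 0.05, grey for the rest, a black bar for the median and the number of gene IDs in brackets. HIF targets reach furthest to the left (median -0.31), the respiratory chain stays near 0, and the cholesterol, osteocyte, osteoclast-regulator and cytokine lists hold orange points with no blue ones. The osteoclast-regulator and cytokine lists share members.

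Of 23 cholesterol genes 12 rose and 0 fell (median 0.14), and 22 of 23 had a positive value. Insig1, a sterol-regulated brake on SREBP, stood at 383, 367 and 385 CPM in static and 472, 458 and 472 CPM in FFSS libraries (0.30, adjusted p = 6.79e-06). Fdft1, squalene synthase, and Mvk, mevalonate kinase, rose by 0.28 and 0.29. Fdft1 overlaps Ctsb, whose counts were 416% of its own. Between 7 (without FFSS replicate 1) and 14 members rose across the omissions, and 0 did in the fit with all 12 libraries. Fatty acid synthesis had 4 of 14 higher, Elovl6, an elongase, among them (0.29), 1 without FFSS replicate 1, and 0 in the fit with all 12 libraries. In the NRF2 list 7 of 23 rose and 0 fell (median 0.09): Gclc, which makes glutathione's precursor, had 45.2, 44.9 and 44.7 CPM against 62.4, 62.4 and 62.3 CPM (0.47, adjusted p = 6.45e-07), and Hmox1, haem oxygenase 1, 131, 132 and 132 CPM against 168, 175 and 173 CPM (0.39, adjusted p = 6.45e-07). The replicates of Gclc and Hmox1 were nearly identical within each group.

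Metallothioneins, zinc-binding proteins, rose with them. Mt2 went from 31.8, 33.5 and 33.2 CPM to 51.1, 60.7 and 51.2 CPM (0.73, adjusted p = 3.03e-08), Mt1 from 245 to 307 CPM (0.33) and the zinc exporter Slc30a1 from 33.8 to 43.3 CPM (0.36). Their regulator Mtf1 was at 30.1 and 29.98 CPM. Among 21 chaperones only Hspa4l passed, with -0.29, a share of 4.8% that is near the 5.68% of all genes tested that fell. Of 15 genes of the unfolded protein response 5 fell, Edem1 (147.6 to 128 CPM) among them. That count dropped to 2 without FFSS replicate 1 or 3. In the ATF4 list 5 of 17 rose and 2 fell, among them Cebpb (0.32), Atf4 itself (0.17) and Vldlr (-0.33). Without FFSS replicate 1 or 2 the number that rose was 2. In the fit with all 12 libraries 0 members of the ATF4 and unfolded protein lists passed. In the p53 list 5 of 15 rose, Phlda3 (0.32) among them, and 1 fell. The number that rose was 3 without static replicate 1, FFSS replicate 1 or FFSS replicate 2, and 0 with all 12 libraries.

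Of 28 replication and mitosis genes 10 fell and 1 rose (median -0.11), with 6 lower without static replicate 1 or FFSS replicate 1 and 2 lower with all 12 libraries. Top2a, the topoisomerase of dividing cells, stood at 451, 455 and 448 CPM in static and 348, 345 and 374 CPM in FFSS libraries (-0.34, adjusted p = 2.18e-06). Ccna2, Mki67 and Ccnb2 fell by 0.29, 0.30 and 0.27. In bulk RNA fewer cycling cells and less transcript per cell cannot be told apart. In the chondrocyte list 3 of 20 fell, 0 rose and the median was -0.21. Sox6 and Sox9, factors of cartilage, fell by 0.68 and 0.28, and Mef2c by 0.26. The sign of Sox9 turned with the covariate. Without static replicate 2, 6 of these 20 fell. In the fit with all 12 libraries 0 of them passed. Of 31 collagens 6 fell and 1 rose. Col5a2, a chain of type V collagen, lost the most CPM of any gene past the threshold (2418 to 2192 CPM, -0.14, adjusted p = 0.0108), significance lost without FFSS replicate 2 (adjusted p = 0.063). The count of collagens that fell was 2 without that library and 10 without static replicate 2. With all 12 libraries in the fit 0 collagens passed. Among matrix proteases and inhibitors 5 of 33 fell (15.2%, against 5.68% of all genes tested). In that list 2 rose (6.1%), near the 5.54% of all genes tested. The number that fell was 3 in each of 4 omissions (static replicate 2 or 3, FFSS replicate 1 or 2). Adamtsl1, an ADAMTS-like matrix protein without protease activity, had 25.01, 21.3 and 27.6 CPM against 9.61, 8.30 and 7.90 CPM (-1.52 ± 0.10, adjusted p = 2.03e-10), whereas the inhibitors Timp3 and Timp1 rose by 0.66 and 0.33.

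Developmental and nuclear regulators followed in smaller numbers. In the Notch list 4 of 12 fell and 1 rose (median -0.28): Notch3, a receptor, by 0.42, its ligand Jag2 by 0.24 and the target Hey1 by 0.33, while the target Hes1 went from 64.8, 52.1 and 63.0 CPM to 78.9, 86.8 and 78.7 CPM (0.44, adjusted p = 0.000211). In the TGF-beta and BMP list 4 of 23 fell, Tgfb2 (-0.35) and Bmp2 (-0.19) among them, with 2 to 6 across the omissions. In that list 0 rose, but 3 did without static replicate 2 and 1 without static replicate 1 or FFSS replicate 3. In the fit with all 12 libraries 0 members of the Notch and TGF-beta lists fell, and 1 of the Notch list rose. The HDAC and MEF2 list held 15 IDs, of which 4 fell and 0 rose. Mef2c, the MEF2 factor of osteocytes, went from 668, 736 and 686 CPM to 590, 569 and 583.5 CPM (-0.26, adjusted p = 8.42e-05), and the class IIa members left intact, Hdac9 and Hdac7, fell by 0.35 and 0.19, as did Hdac8 by 0.44. Significance for Hdac7 was lost in 2 omissions, and it overlaps Slc48a1, whose counts were 202% of its own. Hdac5 changed by 0.14 ± 0.05 (adjusted p = 0.0681) and the IDs of Hdac4 by -0.12 and -0.04, short of the threshold. In the clock list 2 of 17 fell, Rora and Per3, each by 0.42, and the sign of Per3 turned with the covariate. With all 12 libraries in the fit 0 clock genes passed. In the lysosome list 1 of 19 rose and 1 fell (5.3% each), shares near those of all genes tested.

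The same contrast in control cells shared no library with this one. It gave 1164 genes higher (7.2% of 16166) and 1209 lower (7.48%), but its libraries were uneven. Control FFSS replicate 1 had 5.87% of reads outside genes, and FFSS replicates 2 and 3 had 9.19% and 10.04%. Without FFSS replicate 1 the count rose from 2373 to 8025, and without any other control library it fell to between 190 and 704. Of the DKO genes past the threshold, 737 of 878 that rose (83.9%) and 785 of 901 that fell (87.1%) had the same direction in control cells, against 64.0% of all genes tested in both. Il1rl1, Gpr39 and Ccl2 had log2 fold changes of 2.599, 1.95 and 1.98 in control cells, and for none of these did the difference between genotypes pass (adjusted p = 0.0552, 0.160 and 0.243). For HIF targets the control median was -0.91, with 19 of 28 lower and 1 higher, and for glycolysis -0.82, with 15 of 23 lower and 1 higher.

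The difference between genotypes was tested as an interaction over all 12 libraries, with the effect in control cells subtracted from that in DKO cells. It was above 0 for 340 genes (2.28% of 14904) and below 0 for 251 (1.68%), at an adjusted p under 0.05. Without control FFSS replicate 1 the total was 5634, and without any other single library it was 180 to 382. Of the 24 genes called lower that could be tested, 6 differed: Ankrd37, Ak4, Adamtsl1, Slc2a1, Narf and Apln, each of which fell further in control cells. With Acta1, this made 7 called genes with a difference, a count that was 3 without control static replicate 1 or 3, DKO static replicate 1 or 2 or DKO FFSS replicate 1 or 2, 4 without DKO FFSS replicate 3 and 18 without control FFSS replicate 1. Ak4 fell by 1.604 in DKO and by 2.62 in control cells (difference 1.01 ± 0.16, adjusted p = 0.00454), and Narf by 1.27 and 2.29 (1.02 ± 0.14, adjusted p = 0.00178). Static means were lower in DKO than in control cells for Ankrd37 (9.13 against 33.4 CPM) and Ak4 (30.7 against 72.2 CPM). The same held for Slc2a1 (116 against 438 CPM) and Adamtsl1 (24.6 against 50.7 CPM). It did not hold for Narf (51.9 against 48.5 CPM) or Apln (175 against 158 CPM). FFSS means were 1.08 and 1.12 CPM for Ankrd37, 10.1 and 11.6 CPM for Ak4 and 43.3 and 109 CPM for Slc2a1. For Egln3, Bnip3, Pfkl and Gpr35 the difference did not pass. Of 18 genes called higher 1 differed, Acta1, with 1.33 in DKO and 0.43 in control cells (0.90 ± 0.19, adjusted p = 0.0219). Its mean went from 2.3 to 5.87 CPM in DKO and from 14.6 to 19.4 CPM in control cells. Hmox1 rose in DKO cells (0.39) and fell in control cells (-0.72), a difference of 1.11 ± 0.11 (adjusted p = 0.000241), and Mt2 differed by 1.08. Tnfsf11 differed by -1.71 ± 0.24 (adjusted p = 0.00236), with means of 0.999 and 3.37 CPM in control against 12.8 and 13.3 CPM in DKO cells. Hdac9 fell by 0.35 in DKO and by 2.21 in control cells (1.86 ± 0.23, adjusted p = 0.000953).

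**Figure D4:**
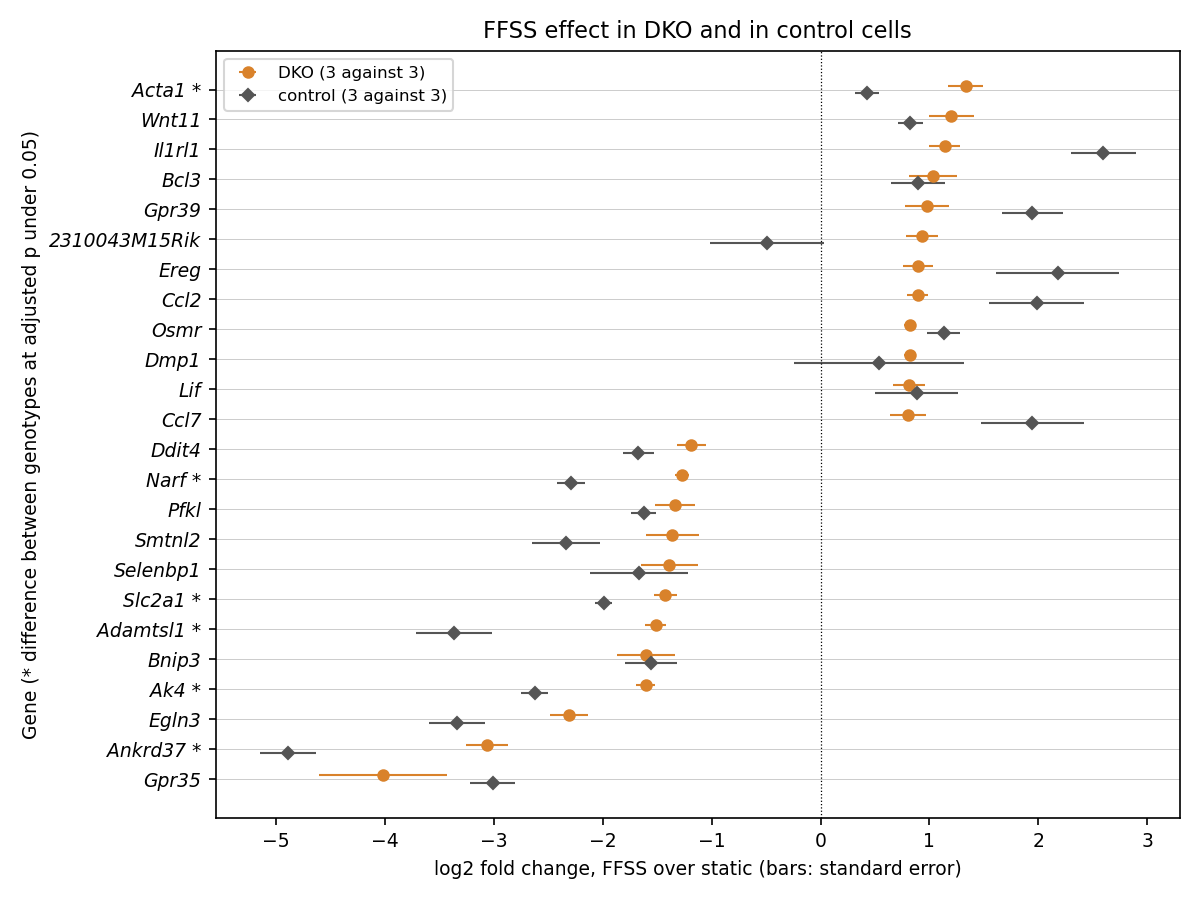
FFSS effect on a log2 scale, with bars for the standard error, in DKO cells (orange circles) and control cells (grey diamonds), 3 libraries against 3 in each, for the genes of the plot of levels. An asterisk marks an adjusted p under 0.05 for the difference between genotypes: Ankrd37, Ak4, Adamtsl1, Slc2a1 and Narf lie further left in control cells and Acta1 further right in DKO cells.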

How the data were processed

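RNA from 6 DKO and 6 control libraries was sequenced single-end on a BGISEQ-500. Per the study's methods and the submitters' processing notes, the authors aligned reads to mm9 with STAR and deposited whole-number HTSeq counts per gene, not stranded, with duplicate reads kept. Because strand was not used, reads of overlapping genes on opposite strands cannot be told apart, and the reads that touched both were left uncounted. Symbols and coordinates came from the GENCODE mm9 annotation, which matched 37168 of 37583 gene IDs (98.9%). The 5 summary lines of each file stayed out of library sizes. Reads outside genes made up 7.07% to 8.56% of the 6 DKO libraries.

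The 6 DKO libraries were fitted alone with edgeR 4.0.16 in R 4.3.3: TMM scaling, genes with 0 counts in 2 or more libraries removed (15924 of 22211 kept), robust quasi-likelihood test, two-sided, Benjamini-Hochberg adjustment. Every adjusted p in the text is from that test unless another tool is named. CPM are TMM-scaled, except for marker sums, which use assigned totals. A fold is past the call threshold above 2. List medians by library used log2(CPM + 0.5). The control comparison was fitted in the same way and the interaction over 12 libraries. Alternatives used DESeq2 1.42.0, limma 3.58.1, other filters and scalings, a replicate block and omission of each library. The fits were tested on simulated data. Tables and plots used Python 3.11.15, pandas 2.3.3 and matplotlib 3.10.9.

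Genes were named by rule: the 12 highest and 12 lowest log2 fold changes above 1 log2 CPM with groups that do not overlap, filled from genes under 2-fold, the 8 largest gains and losses in CPM, up to 4 members of each list, and the targeted and bone genes. A further 12 were chosen after their values were seen. Some named genes are not reported here. Members and lists were chosen with earlier results of these data known.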

Additional observations from a re-analysis of the deposited data

Results flagged for a closer look

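The effect of FFSS differed between genotypes for 27 named genes by the interaction test (edgeR, adjusted p under 0.05), given as the DKO minus the control log2 fold change. Genes with a positive difference that had fallen further in control cells included Adm 2.5212, Ankrd37 1.8227, Apln 1.5565, Narf 1.0152, Ak4 1.0145, Slc2a1 0.5609 and Adamtsl1 1.8481. Redox and metal-binding genes were positive too, Hmox1 at 1.1075, Mt2 at 1.0786 and Mt1 at 0.8264. So were the stress regulators Atf4 0.6275, Cebpb 0.5696 and Ddit3 0.4871 and the chaperones Hspa4l 0.4991 and Hsp90ab1 0.3483.

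Among nuclear regulators the difference was 1.8632 for Hdac9, 0.8472 for Hdac5, 0.6682 for Hes1, 0.5409 for Tead3 and 0.3287 for Ddx17. It was 0.899 for Acta1 and 0.4412 for Ugdh, an enzyme of proteoglycan synthesis. Negative differences were found for Tnfsf11 -1.7087, Etv4 -0.8442, Elovl6 -0.7367, Timp1 -0.4808 and Eif4g1 -0.4022. Hdac5 is a targeted gene, and its difference comes with a fall in control cells from 133 to 80.7 CPM. Control FFSS replicate 1 stood apart from the other control FFSS libraries, and the number of genes with a difference rose from 591 to 5634 without it. That number fell to between 180 and 382 without any other single library.

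Outside the gene counts, reads assigned to no annotated gene made up a mean of 8.192% of DKO FFSS libraries, above the 7.11% of DKO static and the 5.14% of control static libraries and beside 8.37% in control FFSS libraries (5.87% to 10.04%).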

How the results depend on the processing

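The number of genes called in DKO cells (46) was 30 with edgeR's own expression filter, 15 with DESeq2, 13 with all 12 libraries in the fit, 3 with the share of reads outside genes as a covariate (chosen after seeing the data) and 134 at a 1.5-fold limit. Leaving out 1 library gave 27 (without DKO FFSS replicate 1) to 62 (without DKO static replicate 2). The 15 genes of DESeq2 and the 13 of the fit with 12 libraries were all among the 46. The number past the adjusted p (1787) was 130 with all 12 libraries, each among the 1787, and 6 with the covariate, and 1103 to 1979 without those same libraries. DESeq2 gave 1362, of which 1348 were shared. The interaction count (591) was 1124 with DESeq2 and 180 to 5634 without 1 library, and the control count (2373) was 190 to 8025, both highest without control FFSS replicate 1. Among named genes, 104 of 150 past the threshold passed in each of the 6 omissions and 29 passed with 12 libraries. In the fit with 12 libraries 2 NRF2 genes, 3 early response factors and 1 of the metallothionein list rose. From the HDAC and MEF2, protease and oxygen-sensing lists 1 each fell there. Of the 150 named genes past the threshold 6 turned sign, each with the covariate: Sox9 0.1385, Col3a1 0.1557, Gpr39 -0.3121, Per3 0.0783, Cyr61 -0.0295 and Bambi 0.1136, none of which passed there. The causes were not tested, and the covariate cannot be told apart from the treatment. With 17.59 to 19.17 M reads a library, 3 reads corresponded to 0.157 to 0.171 CPM, and small differences near that level were not detectable.

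Replicate numbers shared across groups did not pair the libraries: deviations of same-numbered DKO libraries correlated at -0.0387, -0.14 and -0.0472. With the number as a block 27 genes were called and 1164 passed, and the interaction count was 418. Tpi1 passed with the block (adjusted p = 0.0207).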
